A study of Mus musculus with 33 samples.

Results

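The genes described here are Atf4 and 9 genes of the integrated stress response, Ddit3, Ddit4, Trib3, Chac1, Sesn2, Asns, Psat1, Phgdh and Shmt2. They were taken by name, by a rule that uses no measured value, although the set was proposed with earlier results of these data known. The table held 55487 gene rows, of which 36527 had enough reads to be tested. The 10 names matched 11 rows, because Ddit3 is listed under 2 identifiers. The second Ddit3 row, ENSMUSG00000116429, spans positions 127290829 to 127293753 of chromosome 10, has 105 bases of exon inside the region of Ddit3 itself, and held 0 reads in all libraries. The other 10 rows were all tested. In GRCm38 the regulators lie as follows, Atf4 on chromosome 15 from 80255184 to 80257541 (plus strand) and Ddit3 on chromosome 10 from 127290774 to 127296288 (plus strand). The feedback and mTORC1 genes are Trib3 on chromosome 2 from 152337422 to 152344032 (minus strand), Chac1 on chromosome 2 from 119351229 to 119354381 (plus strand), Ddit4 on chromosome 10 from 59949669 to 59951834 (minus strand) and Sesn2 on chromosome 4 from 132492032 to 132510501 (minus strand). The enzymes are Asns on chromosome 6 from 7675169 to 7693254 (minus strand), Psat1 on chromosome 19 from 15904678 to 15947337 (minus strand), Phgdh on chromosome 3 from 98313170 to 98339990 (minus strand) and Shmt2 on chromosome 10 from 127517123 to 127522444 (minus strand).

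RNA was sequenced from mammary cells of 33 mice, 1 library per mouse. Tumors came from mice that carry the PyMT oncogene under the MMTV promoter and were either PTHrP WT (Pthrp wt/wt, 10 tumors) or PTHrP KO (Pthrp flox/flox, 9 tumors). Glands came from tumor-free mice of the same Pthrp genotypes without PyMT (8 WT and 6 KO). All the mice carried MMTV-driven Cre and the mTmG reporter, so that cells with active Cre turn from red to green, and in KO mice the same Cre excises a floxed part of the gene. The PyMT and Cre lines were FVB and the floxed line was backcrossed to FVB, while the paper states no background for the reporter line. Green cells were sorted after digestion of the tissue and 48 h of culture, so any cell in which the MMTV promoter has driven Cre enters the sort, and levels are those after culture. Tumors were collected from 3 WT mice each at weeks 6, 8 and 10 and from 3 KO mice each at weeks 8, 10 and 12. The paper takes these weeks as hyperplasia, adenoma and carcinoma, in that order for each genotype. At a shared week, KO tumors are therefore at an earlier stage than WT tumors. A single WT tumor of week 12 has no replicate and enters no test between groups. Glands of 2 mice were sequenced at each of weeks 6, 8, 10 and 12 for WT and weeks 8, 10 and 12 for KO.

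The integrated stress response is a relay in which several kinases (Perk, Gcn2, Pkr and Hri) phosphorylate the translation factor eIF2alpha. General translation then falls while ATF4, a bZIP transcription factor, is translated more, and ATF4 with its partners switches on genes for amino acid uptake, amino acid synthesis and tRNA charging, as well as feedback and cell death genes. Since ATF4 is controlled largely by translation, its mRNA level is only a partial reading of its activity. Mammary epithelium has a large demand for amino acids and for secretory folding, and the serine synthesis enzymes of this response are known for their part in breast tumors.

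ATF4 and C/EBP partners bind composite elements with the letters TGATGNAA, here called CARE-like. They were searched on both strands from 250 bases before to 50 bases after each RefSeq transcription start (GRCm38.p6). All 10 genes had a promoter in that set. The letters were found in 3 of the 10 genes, Asns, Chac1 and Trib3, and in 3.97% of all 32851 promoters or 4.51% of all 27025 genes. The stretches of 30 bases around these matches are printed to show the letters and their flanks in Asns, Chac1 and Trib3. They are sequence matches only, and binding of ATF4 was not measured. They are written 5′ to 3′ along the gene, with the 8 matching letters in capitals, and for Chac1 and Trib3 the element reads on the opposite strand.
Asns: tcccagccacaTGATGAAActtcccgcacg
Chac1: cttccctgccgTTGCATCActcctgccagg
Trib3: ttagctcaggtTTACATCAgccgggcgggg
The Asns stretch is chr6:7693214-7693243 on the minus strand, and the match begins 23 bases before the start site. The Chac1 stretch is chr2:119351038-119351067 on the plus strand, with the match 193 bases before the start. The Trib3 stretch is chr2:152344028-152344057 on the minus strand, and its match begins at base 15 of the RefSeq transcript. These distances are from RefSeq starts, which differ from the Gencode gene ends given above, so that by Gencode the Asns match lies inside the gene and the Trib3 match before it. Of the 3, the Chac1 match has the single form TGATGCAA on the opposite strand, which 0.895% of all promoters hold. In the other 7 genes the letters are not in this window, which does not speak to elements elsewhere.

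Counted reads per library ran from 28419983 to 130981596, and single genes of the set held between 105 reads (the lowest library of Ddit3) and 52794 reads (the highest of Atf4). PyMT reads were 107 to 7489 in the tumors and 0 in all 14 glands. Pthlh, the gene of PTHrP, had 57 to 926 reads in every library and a median of 1.64 CPM (counts of a gene scaled by library size after TMM normalization, the usual CPM unit) in KO tumors against 2.65 in WT tumors. Since the excised part is only a stretch of the gene, that total does not check the genotype labels. The share of reads left on rRNA genes differed with genotype, with medians of 0.0499% in WT tumors, 0.952% in KO tumors, 0.0116% in WT glands and 6.19% in KO glands. Of the lists of cell type markers, the basal or myoepithelial list moved with tissue, with 10 of 10 genes lower in tumors in both genotypes. Its summed level had a median of 2550 CPM (1010 to 3690) in WT tumors against 9800 (5310 to 20800) in WT glands, and 2510 (1610 to 5420) against 10700 (5560 to 19700) in KO. The fibroblast list summed to a median of 271 CPM in WT tumors against 2080 in WT glands, and to 358 against 2310 in KO. The luminal list was at medians of 7150 to 8490 CPM in the 4 kinds of tissue, with 2 genes called higher and 4 lower in WT tumors and 2 higher and 3 lower in KO. The macrophage list summed to medians of 242 CPM in WT tumors, 90.1 in WT glands, 220 in KO tumors and 106 in KO glands, although 4 of its 10 genes were called lower and 1 higher in WT tumors, and 0 lower and 2 higher in KO. Endothelial markers also moved with tissue, with 6 of 10 lower in WT tumors and 1 of 10 in KO, and medians of 5.74 CPM in WT tumors, 20.8 in WT glands, 4.57 in KO tumors and 16.1 in KO glands. Adipocyte markers had medians of 18.8 to 22.7 CPM in the 4 kinds of tissue. Lymphocyte markers had medians of 0.933 CPM in WT tumors, 7.74 in WT glands, 1.15 in KO tumors and 5.84 in KO glands, with 2 of 10 lower in tumors of each genotype, and the adipocyte marker Cfd had at most 3 reads in every library. No marker of these lists was called between the genotypes. Fewer cells of a type and less RNA per cell cannot be told apart in such bulk samples, and the part of these shifts in any result below was not tested.

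Per kilobase of exon, a scale on which genes can be compared, Atf4 mRNA was the highest of the 10, with a median of 144.8 CPM per kb over the 33 libraries. It was followed by Ddit4 at 129.4, and their ranges over the libraries overlapped (92.9 to 193 and 85.3 to 187). The biosynthetic enzymes came next, Asns at 34.0 CPM per kb, Shmt2 at 29.8, Psat1 at 19.2 and Phgdh at 17.6. Trib3 was at 15.1, Sesn2 at 8.89, Ddit3 at 6.58 and Chac1 at 5.54. Ddit4 in its lowest library lay above Asns in its highest (71.6), whereas every other neighbouring pair in this order overlapped in range. All later levels are CPM of 1 gene, not per length.

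**Figure D1:**
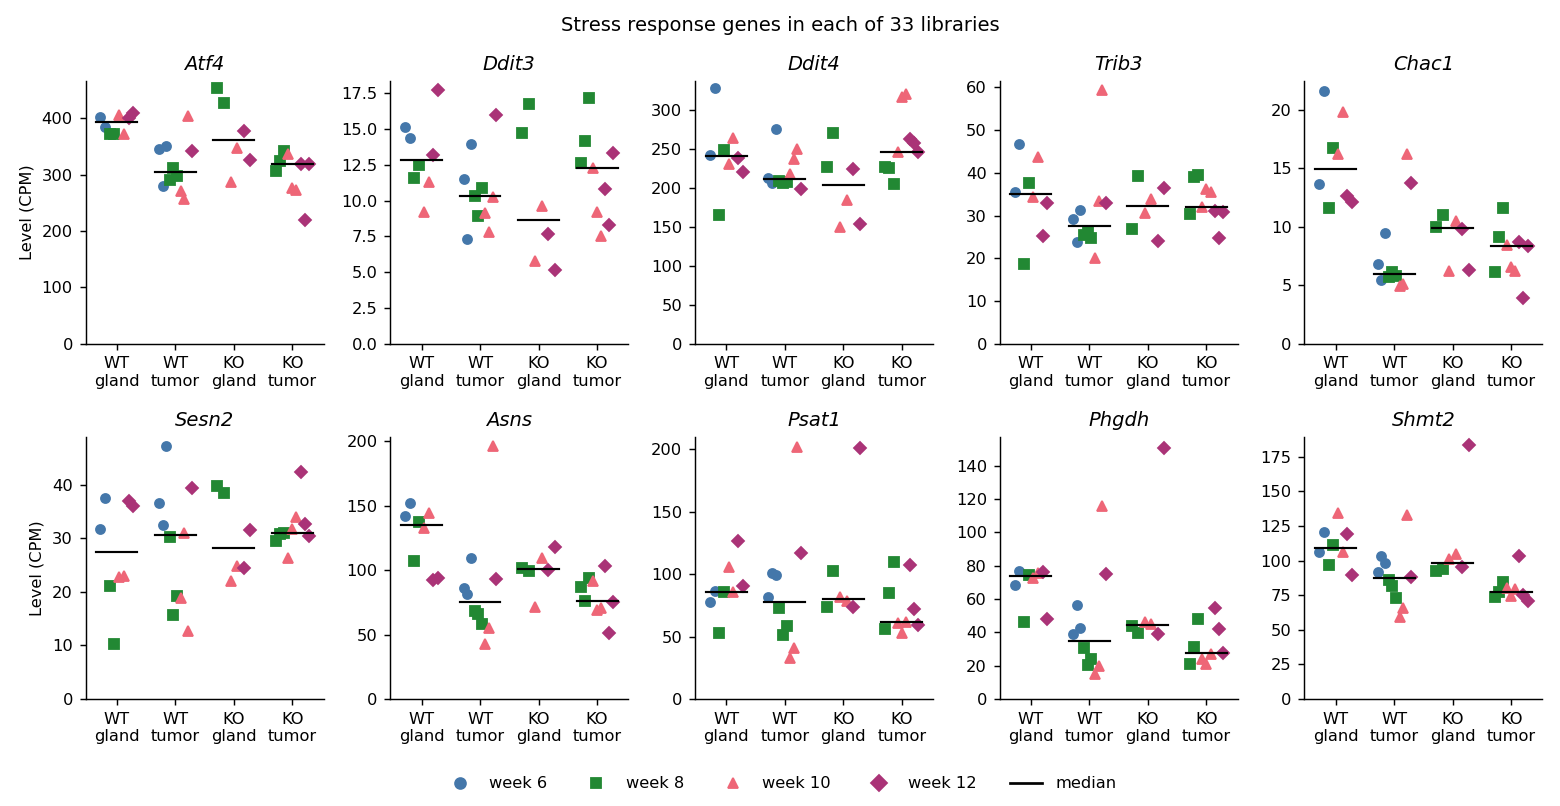
Level in CPM (vertical axes, from 0, a scale of its own for each gene) of the 10 genes in each of 33 libraries, by genotype and tissue, with week shown by color and shape and the median as a line. Chac1 medians were 14.9 in WT glands and 5.92 in WT tumors, and a single WT tumor of week 10 sat far above the other WT tumors for Asns (196) and Psat1 (202).

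To learn whether the response differs between tumors and normal epithelium, tumors were compared with tumor-free glands of the same genotype and age. In the PTHrP WT mice, averaged over weeks 6, 8 and 10, 3 of the 10 genes were called (adjusted p under 0.1 and a change over 1.5-fold), all lower in tumors. These were Chac1, which degrades glutathione, Asns, the asparagine synthetase, and Phgdh, the first enzyme of serine synthesis. Over all genes tested, 15.7% were called in this comparison. The median log2 change of the 10 genes was -0.30, beside 0.03 over all genes. The KO mice had 1 of 10 called, Phgdh, also lower, against 10.6% of all genes, with a median of -0.25 beside 0.09.

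In WT, Chac1 had the largest difference of the 10 genes. WT tumors had 4.95 to 16.2 CPM (median 5.92, mean 7.93 ± 3.97, SD, n = 10) and WT glands 11.6 to 21.6 (median 14.9, mean 15.5 ± 3.71, n = 8). At weeks 6, 8 and 10, 8 of 9 WT tumors lay below all 6 WT glands, and the exception was replicate 3 of week 10 at 16.2. The difference was -1.20 on the log2 scale (SE 0.23), a 2.29-fold lower level, with an adjusted p of 0.0003856. It was called in each of 24 refits, with adjusted p from 6.936e-07 to 0.003215. In KO mice, Chac1 ran from 3.86 to 11.6 CPM in tumors (median 8.34, n = 9) and from 6.17 to 11.02 in glands (median 9.91, n = 6), and the ranges overlapped. The KO difference was -0.23 (95% interval -0.69 to 0.23, adjusted p = 0.708), and it ran from -0.56 to -0.08 over 24 refits. Whether the tumor difference of Chac1 itself differed between genotypes was tested over weeks 8 and 10, the weeks they share, and gave -0.92 (SE 0.41) with an unadjusted p of 0.0329 and an adjusted p of 0.868. That value ran from -1.32 to -0.60 over 29 refits. At those weeks the KO tumors were at an earlier stage than the WT tumors.

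Asns followed the same order of medians. WT tumors had 42.4 to 196 CPM (median 75.0, mean 85.6 ± 43.5, n = 10) and WT glands 92.7 to 152 (median 135, mean 125 ± 23.8, n = 8). Below all glands of weeks 6, 8 and 10 lay 7 of 9 WT tumors, and 1, the same replicate 3 of week 10, lay above them all. The log2 difference was -0.70 (SE 0.21, 1.62-fold, adjusted p = 0.021). It fell under the 1.5-fold limit only when replicate 1 of the week 10 tumors was left out (-0.58, adjusted p = 0.0283), among the settings tried. KO tumors had 51.4 to 103 CPM (median 76.2, n = 9) and KO glands 71.5 to 118 (median 101, n = 6), a difference of -0.32 (95% interval -0.74 to 0.10).

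**Figure D2:**
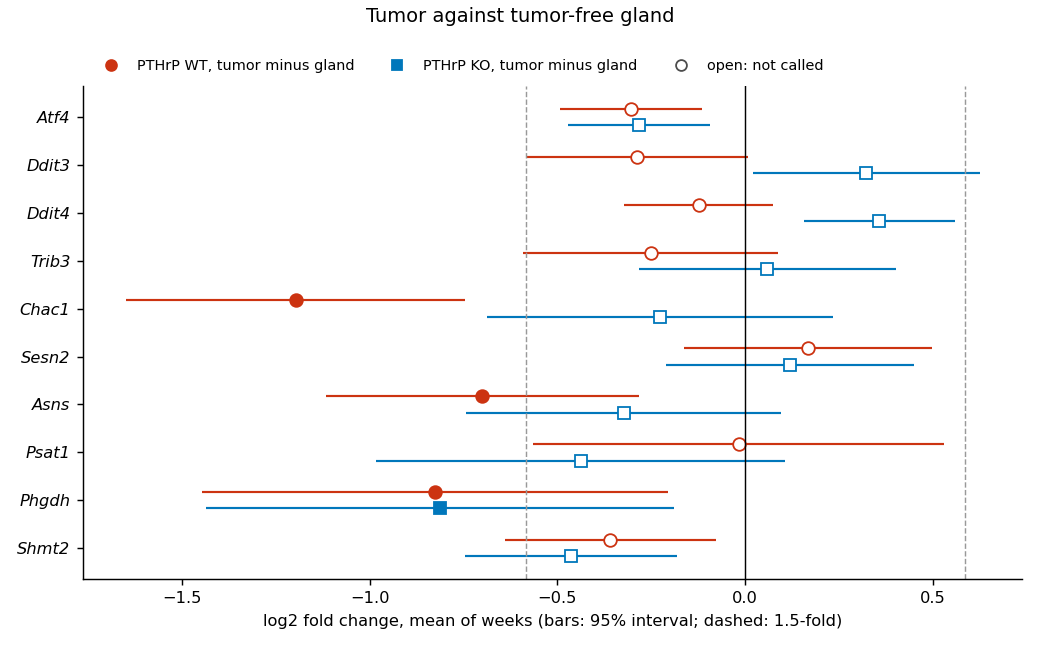
Log2 fold change of tumor against gland (horizontal axis), averaged over weeks, for the 10 genes in PTHrP WT (circles) and KO mice (squares), with 95% intervals and filled symbols for called genes. Chac1 (-1.20), Asns (-0.70) and Phgdh (-0.83) are filled in WT, and Phgdh (-0.81) in KO.

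The serine and one-carbon enzymes make serine from a glycolytic intermediate (Phgdh, then Psat1) and pass its carbon to folate in mitochondria (Shmt2). Phgdh was at 15.2 to 116 CPM in WT tumors (median 34.9, mean 44.0 ± 31.4, n = 10) and at 46.05 to 76.96 in WT glands (median 73.7, mean 67.4 ± 12.8, n = 8). KO tumors held 20.8 to 54.4 (median 27.7, SD 12.26, n = 9) and KO glands 39.1 to 151 (median 44.4, mean 60.7 ± 44.1, n = 6). Tumors were thus lower in both genotypes by the median, with ranges that overlapped. The log2 differences were -0.83 in WT (SE 0.32, adjusted p = 0.0731) and -0.81 in KO (SE 0.32, adjusted p = 0.0983), both close to the threshold. The WT call was lost in 13 of 24 refits, among them 11 of the 15 that left out 1 library, and held without replicate 2 of the week 6 tumors, replicate 1 of the week 8 tumors, replicate 3 of the week 10 tumors (-1.33, adjusted p = 8.893e-05) or replicate 1 of the week 8 glands. The KO call was lost in 16 of 24 refits and held, among those leaving out 1 library, without replicate 3 of the week 8 tumors, replicate 1 of the week 12 tumors or replicate 1 of the week 12 glands. Without replicate 2 of the week 12 KO glands the KO value was -0.36 (adjusted p = 0.642), and with only libraries of an rRNA share under 1% it was -0.45 (adjusted p = 0.907). That last value covers weeks 8 and 12 alone, with 1 KO gland in each, because no gland of week 10 was under 1%. With the rRNA share as a covariate the Phgdh value was -0.73, and with rRNA genes left out -0.80, neither of them called.

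Psat1 showed no call in either genotype. It was at 33.2 to 202 CPM in WT tumors (median 77.5, n = 10) and 52.8 to 126 in WT glands (median 86.1, n = 8), with a log2 difference of -0.02 (95% interval -0.57 to 0.53), or -0.45 without replicate 3 of the week 10 tumors (adjusted p = 0.101). KO tumors ran from 52.8 to 110 (median 61.4, n = 9) and KO glands from 73.5 to 201 (median 79.9, n = 6), with 6 of 9 tumors below every gland and a difference of -0.44 (95% interval -0.98 to 0.11), or -0.11 without replicate 2 of the week 12 glands. Shmt2 was lower in tumors by less than 1.5-fold. WT tumors had 59.3 to 133 CPM (median 87.5) and WT glands 89.8 to 135 (median 109), and the log2 difference was -0.36 (SE 0.14, adjusted p = 0.0884). In KO, 8 of 9 tumors (70.6 to 103.5, median 77.6) lay below all 6 glands (92.7 to 183, median 98.4), with a difference of -0.46 (SE 0.14, adjusted p = 0.0297). Without replicate 2 of the week 12 KO glands, this Shmt2 value was -0.26 (adjusted p = 0.334), and with only libraries under 1% rRNA it was -0.23 (0.875).

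Atf4 itself was slightly lower in tumors of both genotypes, by less than the 1.5-fold limit. The order of its medians was WT gland 393 CPM (372 to 410, n = 8), KO gland 362 (288 to 455, n = 6), KO tumor 319 (219 to 341, n = 9) and WT tumor 305 (256 to 405, n = 10), and neighbours in that order overlapped. At weeks 6, 8 and 10, 8 of 9 WT tumors lay below all 6 WT glands. The log2 difference was -0.30 in WT (SE 0.10, 1.23-fold, adjusted p = 0.0279) and -0.28 in KO (SE 0.10, 1.22-fold, adjusted p = 0.0512). WT glands were narrow in Atf4 (mean 390 ± 16.6), against 370 ± 62.9 in KO glands.

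Ddit3 (CHOP, a bZIP factor tied to cell death under stress) and Ddit4 (REDD1, an inhibitor of mTORC1) had values of opposite sign in the genotypes. Ddit3 had medians of 10.29 CPM in WT tumors (7.34 to 16.01), 12.8 in WT glands (9.16 to 17.7), 12.2 in KO tumors (7.52 to 17.2) and 8.65 in KO glands (5.17 to 16.8), and all these ranges overlapped. Its log2 difference of tumor and gland was -0.29 in WT (95% interval -0.58 to 0.01, adjusted p = 0.212) and 0.32 in KO (0.02 to 0.62, adjusted p = 0.206). Over 24 refits the KO value of Ddit3 ran from 0.17 to 0.46. Ddit4 had a median of 211 CPM in WT tumors (199 to 276), 241 in WT glands (166 to 329), 247 in KO tumors (205 to 321) and 205 in KO glands (150 to 271). Its differences were -0.12 in WT (adjusted p = 0.468) and 0.36 in KO (1.28-fold, adjusted p = 0.0178), the latter under the 1.5-fold limit. With only libraries under 1% rRNA the Ddit4 value in KO was 0.13 (adjusted p = 0.921). The test between the genotypes over weeks 8 and 10 gave -0.33 for Ddit3 (unadjusted p = 0.228) and -0.35 for Ddit4 (unadjusted p = 0.0556), with adjusted p of 1.0 and 0.913.

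Trib3, a pseudokinase that restrains ATF4, and Sesn2, a leucine sensor that inhibits mTORC1, were called in neither genotype. Trib3 had medians of 27.6 CPM in WT tumors, 34.99 in WT glands, 32.0 in KO tumors and 32.2 in KO glands, with differences of -0.25 (95% interval -0.59 to 0.09) and 0.06 (-0.28 to 0.40). Sesn2 had medians of 30.6, 27.4, 30.9 and 28.2 CPM in the same order, with differences of 0.17 (-0.16 to 0.50) and 0.12 (-0.21 to 0.45). None of the 10 genes separated tumors from glands without overlap at matched weeks, in WT (5.97% of all genes did) or in KO (3.43% did).

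Single weeks, with 3 tumors and 2 glands each, gave few calls. At week 6, 1 of 10 genes was called in WT (5.86% of all genes), Chac1, at 6.82, 5.445 and 9.45 CPM in tumors and 13.6 and 21.6 in glands. Its log2 difference was -1.28 (SE 0.40, adjusted p = 0.0705). At week 8 the same gene alone was called (9.19% of all genes), at 5.73, 6.08 and 5.76 CPM against 11.6 and 16.7, a difference of -1.27 (SE 0.40, adjusted p = 0.0502). The week 6 call was lost without tumor replicate 1 (-1.24, adjusted p = 0.194) or 2 (-1.12, 0.263) or gland replicate 2 (-0.91, 0.647). It was also lost with the rRNA share as a covariate (-1.21, adjusted p = 0.1045) and with only libraries under 1% rRNA (-1.24, 0.1245). The week 8 call was lost without gland replicate 2 (-0.98, adjusted p = 0.392) or any of the 3 tumors (0.115 to 0.136), with values from -1.30 to -1.26 in the latter fits.

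At week 10 in WT, 1 of the 10 genes had an unadjusted p under 0.05 by edgeR, as did 5637 of all 36527 genes. None of the 10 was called by edgeR (6.13% of all genes were), and DESeq2 and limma each called 1, Chac1. That count changed with 1 library. Asns was at 42.4, 55.1 and 196 CPM in the 3 tumors and at 133 and 144 in the glands, so that the third tumor lay above and the others below both glands. Phgdh was at 15.2, 19.9 and 116 against 72.8 and 75.8, and Psat1 at 33.2, 41.1 and 202 against 105 and 86.0. Without that tumor, replicate 3, 5 of 10 genes were called, all lower: Chac1 (-1.84), Asns (-1.51), Psat1 (-1.37), Phgdh (-2.08) and Shmt2 (-0.95), with adjusted p of 0.003055, 0.0004463, 0.022, 0.004603 and 0.008605. The remaining 2 tumors were compared with 2 glands in that fit, in which 2067 of all 36527 genes were called, 1116 of them lower.

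**Figure D3:**
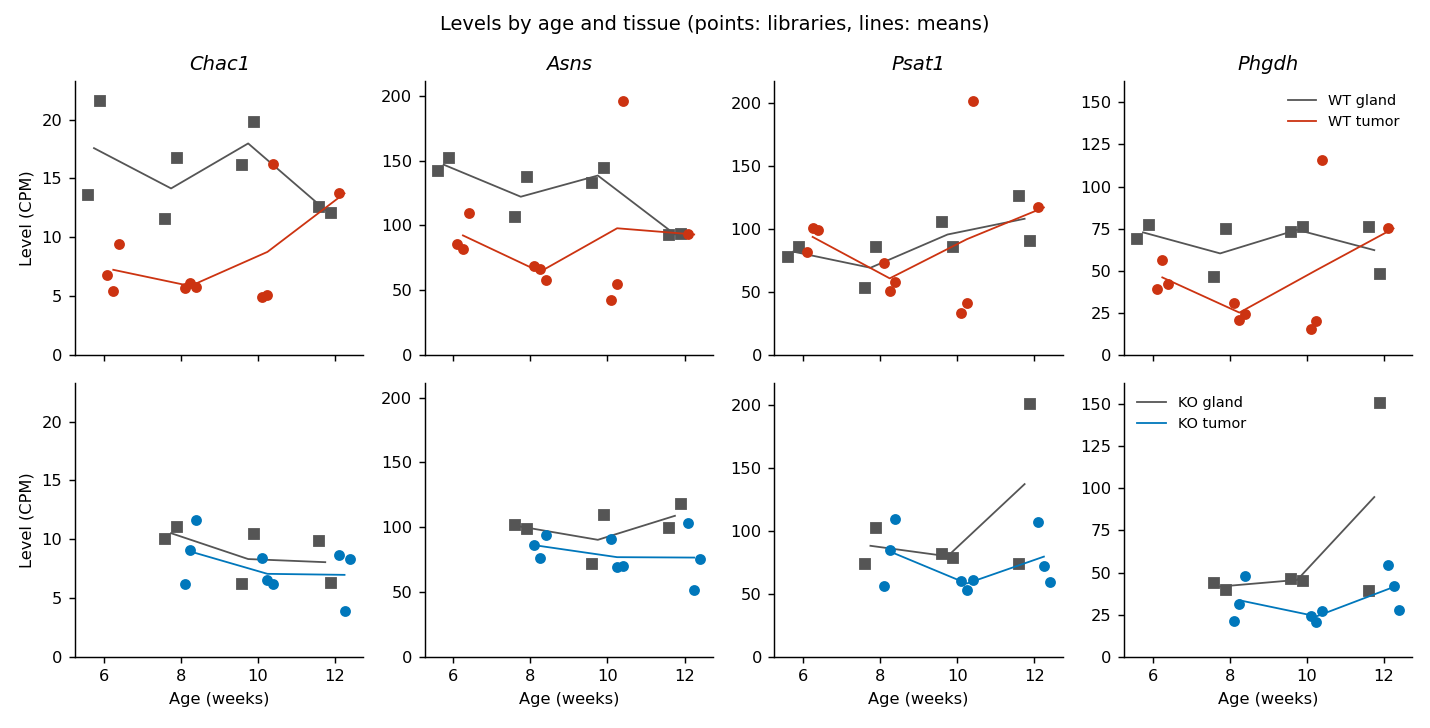
Level in CPM (vertical axes, from 0) against age in weeks for Chac1, Asns, Psat1 and Phgdh, with WT above and KO below. Squares are glands, circles tumors, and lines join means. At week 10 the WT tumors split, with Psat1 at 33.2 and 41.1 in replicates 1 and 2 and 202 in replicate 3, and at week 12 KO glands split for Psat1 (73.5 and 201).

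Replicate 3 of the WT tumors of week 10 stood above the other 9 WT tumors in 7 of the 10 genes and below them all in 1, Sesn2 (12.6 CPM, against 15.7 to 47.1). The 7 were Atf4 (405, against 256 to 351), Trib3 (59.5, against 20.0 to 33.5), Chac1 (16.2, against 4.95 to 13.7), Asns (196, against 42.4 to 109), Psat1 (202, against 33.2 to 117), Phgdh (116, against 15.2 to 75.1) and Shmt2 (133, against 59.3 to 103). Ddit3 (10.26) and Ddit4 (250) lay within the range of the others. This library had 47132611 counted reads, an rRNA share of 0.00723%, 528 PyMT reads and a basal marker sum of 1770 CPM, all within the range of the other WT tumors or, for rRNA, near its low end. Its luminal marker sum of 9970 CPM was the highest of the WT tumors and its fibroblast sum of 124 the lowest. The part of these differences was not tested.

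In KO mice, none of the 10 genes was called at week 8 by edgeR (2.49% of all genes were), DESeq2 or limma. By edgeR 1 had an unadjusted p under 0.05, Atf4 at -0.44, as did 3885 of all 36527 genes. At week 10, 1 was called (5.66% of all genes), Ddit4, at 246, 318 and 321 CPM in tumors and 150 and 185 in glands. The log2 difference was 0.82 (SE 0.18, 1.76-fold, adjusted p = 0.007394). It was lost without gland replicate 1 (0.68, adjusted p = 0.144), and adjusted p in the other 12 refits ran from 0.0006479 to 0.0451. At week 12, 1 was called (6.11% of all genes), Shmt2, at 103.5, 75.2 and 70.6 CPM in tumors and 95.3 and 183 in glands, a difference of -0.74 (SE 0.25, adjusted p = 0.0885). The value rested on gland replicate 2, without which it was -0.15 (adjusted p = 0.886). That call was also lost without tumor replicate 2 (adjusted p = 0.267) or 3 (0.306), and without gland replicate 1, 4 genes were called, Ddit3 (1.07) and Ddit4 (0.74) higher and Phgdh (-1.85) and Shmt2 (-1.13) lower. That fit sets 3 tumors against a single gland, replicate 2, which is assumed to vary like the other groups, and 2204 of all genes were called in it, 1465 of them higher.

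Gland replicate 2 of KO week 12 lay above the other 5 KO glands for Psat1 (201 CPM, against 73.5 to 103), Phgdh (151, against 39.1 to 46.3), Shmt2 (183, against 92.7 to 105) and Asns (118, against 71.5 to 109), and below them for Ddit3 (5.17, against 5.79 to 16.7). Chac1 (6.25), Trib3 (36.4) and Atf4 (327) were within the range. The library had the largest rRNA share of all libraries, 18.8%, whose part was not tested. The Shmt2 difference of week 12 was -0.70 with the rRNA share as a covariate (adjusted p = 0.1315), -0.72 with rRNA genes left out (0.1131) and -0.75 in a fit of only the libraries compared (0.364), and the call was lost in each. With only libraries under 1% rRNA, which at week 12 drops just this gland, it was -0.17 (adjusted p = 0.890).

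The question of PTHrP was asked by comparing genotypes within tissue. Tumors were compared at shared weeks, at which KO tumors are at an earlier stage, so genotype and stage cannot be told apart there. Between WT and KO tumors of weeks 8 and 10 none of the 10 genes was called by edgeR (0.512% of all genes were), DESeq2 or limma. By edgeR 3996 of all 36527 genes had an unadjusted p under 0.05, among them 1 of the 10. This was Sesn2, at 12.6 to 30.95 CPM in 6 WT tumors (median 18.97) and 26.4 to 33.9 in 6 KO tumors (median 30.8), with 4 of the WT tumors below all the KO tumors. The log2 difference was -0.52 (SE 0.18, unadjusted p = 0.00891, adjusted p = 0.269), and without replicate 2 of the week 10 WT tumors it passed (-0.72, adjusted p = 0.0538). For Atf4 the difference was -0.02 (95% interval -0.23 to 0.19) and for Asns -0.03 (-0.50 to 0.43). For Asns and for Chac1, 5 of the 6 WT tumors lay below all the KO tumors and 1, replicate 3 of week 10, above them all. Without that library the differences were -0.54 for Asns (adjusted p = 0.134), -0.55 for Chac1 (0.357), -0.55 for Psat1 (0.342) and -0.43 for Phgdh (0.565), the last against 0.33 with it. The 95% interval reached past a 1.5-fold change for Sesn2 (-0.88 to -0.16), Ddit3 (-0.64 to 0.01), Chac1 (-0.65 to 0.36), Psat1 (-0.50 to 0.70) and Phgdh (-0.36 to 1.02). For Trib3 it ended so close to that change (-0.57 to 0.175) that this approximate interval does not settle it. For Atf4, Asns, Ddit4 and Shmt2 it stayed within that change. No gene of the 10 kept the tumors of the genotypes apart, while 0.756% of all genes did.

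Between WT and KO glands of weeks 8, 10 and 12, none was called either by edgeR (0.906% of all genes were), DESeq2 or limma. By edgeR 4514 of all 36527 genes had an unadjusted p under 0.05, among them 2 of the 10, Chac1 and Ddit3. Chac1 was at 11.6, 16.7, 16.2, 19.8, 12.6 and 12.1 CPM in the WT glands and at 9.99, 11.02, 6.17, 10.45, 9.83 and 6.25 in the KO glands. All 6 WT glands lay above all 6 KO glands, and Chac1 alone of the 10 genes was without overlap, as were 0.778% of all genes. Its log2 difference was 0.72 (SE 0.26, 1.64-fold, unadjusted p = 0.0102, adjusted p = 0.231), beside a median of 0.135 over all genes and 0.139 over the 10 genes. The adjusted p was 0.0638 without the filter on low counts and 0.0638 to 0.9999 over 21 refits. With libraries under 1% rRNA, no KO gland of week 10 is left, and the value over weeks 8 and 12 alone, from 4 WT and 2 KO glands, was 0.42. Ddit3 was 0.43 higher in WT glands (SE 0.17, unadjusted p = 0.0176, adjusted p = 0.285), at 9.16 to 17.7 CPM against 5.17 to 16.8.

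The tumor difference did not differ between genotypes for any of the 10 genes at the threshold, by edgeR, DESeq2 or limma. That test too sets WT tumors beside KO tumors of an earlier stage. By edgeR 1 of the 10 had an unadjusted p under 0.05, Chac1 as given above, as did 2038 of all 36527 genes. Over all genes, 0.00548% were called in that test. Change with age within tumors was asked in the same way. From week 6 to week 10 in WT tumors, none was called by edgeR (0.011% of all genes were) or limma, and DESeq2 called 1. By edgeR 3122 of all genes had an unadjusted p under 0.05, among them 1 of the 10. It was Sesn2, at 36.6, 32.5 and 47.1 CPM at week 6 and 18.8, 30.95 and 12.6 at week 10, a log2 difference of -0.90 (SE 0.26, unadjusted p = 0.002092, adjusted p = 0.438, and 0.082 by DESeq2). Week 8 tumors were at 30.2, 15.7 and 19.2. Without replicate 3 of week 10, Psat1 (-1.34, adjusted p = 0.0808) and Asns (-0.92, adjusted p = 0.0764) were called lower at week 10, whereas the values with it were -0.03 and 0.08. In that fit 374 of all genes were called, 206 of them lower, against 4 with it. From week 8 to week 12 in KO tumors, none was called by edgeR, DESeq2 or limma (0% of all genes by edgeR). By edgeR 0 of the 10 had an unadjusted p under 0.05, beside 2878 of all genes. The single WT tumor of week 12 had 13.7 CPM of Chac1, 93.0 of Asns and 75.1 of Phgdh, within the range of WT glands for all 3.

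How the genes moved together was described by Pearson's r of log2 CPM over the 33 libraries. These libraries share tissue, genotype and normalization, so no p is given. Among the serine enzymes r was 0.91 for Phgdh and Shmt2, 0.88 for Psat1 and Phgdh (0.875 before rounding) and 0.82 for Psat1 and Shmt2. Chac1 went with Asns (0.85) and Atf4 (0.82), and Atf4 with Asns at 0.78. Asns was as close to Shmt2 (0.79) and Phgdh (0.79). As deviations from the mean of each genotype, tissue and week, the 3 serine pairs, Asns and Chac1, Atf4 and Chac1, and Atf4 and Asns were at 0.93, 0.97, 0.94, 0.83, 0.86 and 0.80. Without the WT tumor and the KO gland that stood apart they were at 0.87, 0.82, 0.73, 0.90, 0.82 and 0.79 over 31 libraries, with Asns and Chac1 then the highest of all pairs.

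Of the other genes, Atf4 had an r of 0.56 with Ddit3 (0.70 as deviations, 0.64 over 31 libraries), 0.54 with Shmt2, 0.52 with Phgdh, 0.46 with Psat1, 0.32 with Trib3, 0.03 with Ddit4 and 0.00 with Sesn2 (0.0024 before rounding). Sesn2 had an r between -0.11 and 0.27 with each of the other genes. Correlations with the log10 rRNA share over the 33 libraries ran from -0.35 (Chac1) to 0.26 (Sesn2), and with log10 depth from -0.14 (Trib3) to 0.18 (Ddit3).

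**Figure D4:**
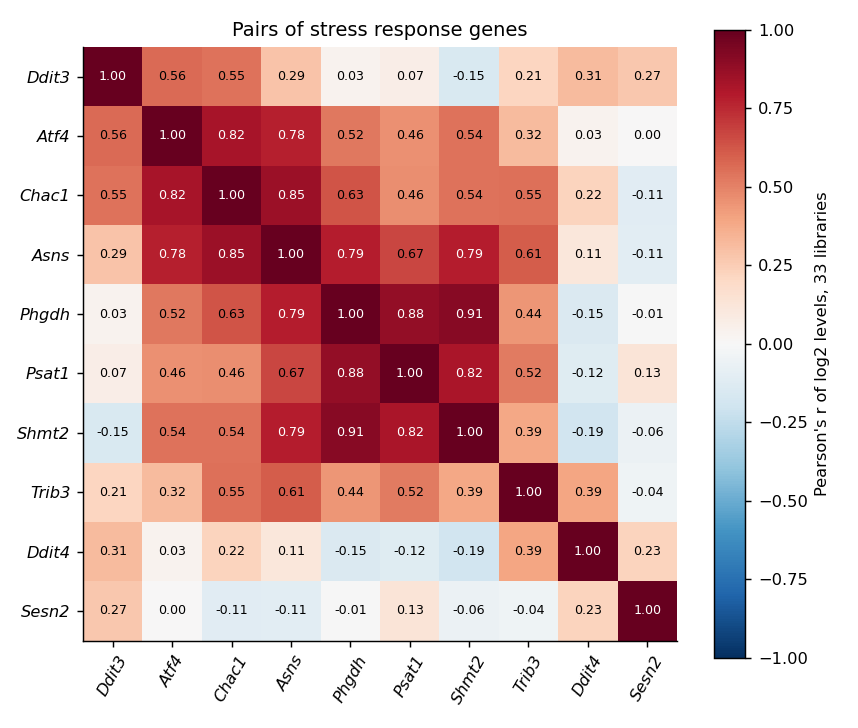
Pearson's r of log2 levels over 33 libraries for each pair of the 10 genes (color from -1 to 1, number in each cell). Pairs of Phgdh, Psat1 and Shmt2 are at 0.82 to 0.91, pairs of Atf4, Chac1 and Asns at 0.78 to 0.85, Asns is at 0.79 with both Phgdh and Shmt2, and Sesn2 has an r of at most 0.27 with any other gene.

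Among the 10791 genes with a mean of at least 5 CPM, the 5 most like Asns over the 33 libraries were Mthfd2 (r = 0.95), Slc7a11 (0.94) and the tRNA synthetase genes Aars (0.92), Mars1 (0.91) and Gars (0.90). Those most like Atf4 were Yars (0.86), Aars (0.85), Pawr (0.84), Mars1 (0.84) and Slc7a11 (0.84). Ddit3 had other neighbours, Rragd (0.88), Clcn7 (0.87), Zxdc (0.87), Asah1 (0.86) and B4galt7 (0.86). As deviations from condition means, 4 of the 5 genes remained for Asns, 2 for Atf4 and 1, B4galt7, for Ddit3.

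Wider lists of 131 genes placed the set in its pathway, each read as counts of called genes in the tumor and gland comparisons averaged over weeks. These counts stand beside 15.7% of all genes called in WT and 10.6% in KO, and nothing particular to a list is read from them. At the top of the relay, none of 14 kinases, eIF2B subunits and feedback factors was called in WT or KO, and their changes ran from -0.27 to 0.31 in WT. Among 11 bZIP and related transcription factors, 3 were higher in tumors of both genotypes, Xbp1, the factor of the IRE1 arm (0.80 in WT, adjusted p = 0.00238, and 0.78 in KO, 0.003633), Cebpb (0.63 and 0.69) and Cebpd (0.90 and 0.91). A further 3 were lower in WT tumors, Atf3 (-1.39, adjusted p = 0.0002159), Atf5 (-0.63, adjusted p = 0.0183) and Batf3 (-0.78, adjusted p = 0.0573), the last at medians of 0.285 to 0.452 CPM. The median level of Atf3, an ATF4-induced gene that is also an immediate early gene, was 29.9 CPM in WT tumors, 79.1 in WT glands, 78.7 in KO tumors and 91.7 in KO glands.

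Of 14 other genes of serine, one-carbon and amino acid synthesis, 7 were lower and 1 higher in WT tumors, and 6 lower in KO tumors. Cth, of cysteine synthesis, was at -1.22 in WT (adjusted p = 0.0004022) and -0.81 in KO (0.0212). Mthfd2 was at -1.04 (adjusted p = 0.0117) and -0.78 (0.0779), and Cbs at -1.03 (adjusted p = 0.008477) and -1.80 (5.075e-05). Mthfd1l, a mitochondrial folate enzyme, was called in KO (-0.89, adjusted p = 0.006128) and stayed under the 1.5-fold limit in WT (-0.56, adjusted p = 0.0862). The gene that was higher in WT tumors was Shmt1, the cytosolic partner of Shmt2 (0.73, adjusted p = 0.009252). The median of the list was -0.64 in WT and -0.40 in KO, beside 0.03 and 0.09 over all genes.

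Amino acid transporters gave 5 of 10 lower in WT and 4 of 10 lower in KO. Slc43a1 was at -3.06 and -2.39, Slc7a3 at -2.18 and -0.96, Slc7a1 at -0.95 and -0.84, and Slc7a11 at -1.05 in WT (adjusted p = 0.0102). The next list held 13 genes, tRNA synthetases and the tRNA exporter Xpot. Of these, 1 was lower in WT, Cars (-0.67, adjusted p = 0.0008754), and 0 in KO, although the list's median was -0.28 and -0.25. Among 14 stress outputs, 4 were lower and 1 higher in WT and 1 lower in KO, with Fgf21, a secreted stress hormone, at -2.16 and -1.83, with medians of 0.149 to 0.775 CPM in the 4 kinds of tissue. The gene that was higher in WT was Cdsn, at 1.70, and it was at 1.41 in KO without a call. Stc2, a secreted glycoprotein, was at -1.22 in WT (adjusted p = 0.003381).

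None of 17 chaperone and folding genes of the ATF6 and XBP1 arms was called in WT, where they ran from -0.20 to 0.15, or in KO, where they ran from -0.37 to 0.30. Lists of other regulators were read because Ddit4, Sesn2 and Trib3 also answer to p53, hypoxia or glucocorticoids. Of 10 p53 targets, 1 was higher and 2 lower in WT tumors and 1 lower in KO, with Eda2r at 0.74 in WT and Phlda3 at -0.90 and -0.87. Of 10 hypoxia targets, 2 were higher in WT, Car9 (1.76) and Adm (0.80), and 5 in KO, with Car9 at 1.77, Adm at 0.98 and Ndrg1 at 0.82. Of 8 glucocorticoid targets, 3 were higher in WT and 2 in KO, with Errfi1 at 1.14 and 0.83.

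Since the cells were cultured and sorted, 10 immediate early genes were read too. In WT tumors 3 of 10 were lower, with Egr2 at -2.42 and Jun at -0.77, and in KO tumors 1 was lower, Egr2 at -1.24, and 1 higher, Ier2 at 0.63. Between WT and KO tumors, 5 of the 131 genes of the 11 lists were called (0.512% of all genes), and in the immediate early list it was Dusp1 (-1.73, adjusted p = 0.002796). Atf3 was lower in WT than in KO tumors (-1.45, adjusted p = 0.0257), as were Adm (-0.77) and Per1 (-0.94), and Car9 was higher (1.15). In glands 1 of the 131 was called (0.906% of all genes), Pck2, higher in WT (0.70, adjusted p = 0.0399). The part of culture, sorting and rRNA share in these differences was not tested.

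**Figure D5:**
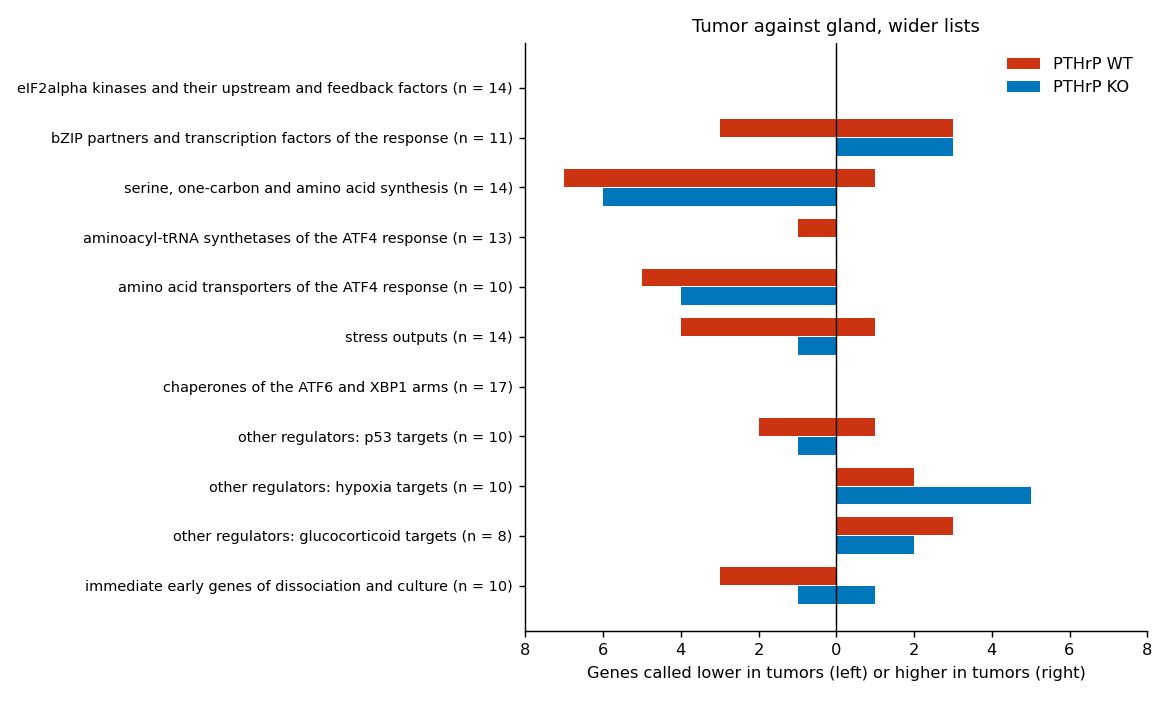
Number of genes called lower (to the left) or higher (to the right) in tumors than in glands, averaged over weeks, for 11 lists in PTHrP WT and KO mice, with the number of genes in each list. Synthesis genes (7 and 6 lower) and transporters (5 and 4 lower) lie to the left, hypoxia targets (2 and 5 higher) to the right, and the kinase and chaperone lists have no bar.

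Ddit3 was measured with a reservation. The table of normalized values that the authors also deposited held 0.599% to 7.94% more Ddit3 reads than the count table (median 2.81%), against -1.09% to 0.094% for the other 9 genes. Whether reads over both Ddit3 rows were left uncounted was not tested.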

How the data were processed

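Total RNA of sorted GFP+ cells was depleted of rRNA and made into stranded paired-end libraries. The authors aligned reads with HISAT to GRCm38 and Gencode M16, dropped duplicates (Picard 1.128) and took HTSeq counts for each gene, which are the raw counts of the deposited table. The authors' second deposited table holds a normalized signal, counts divided by a size factor per library. The strand setting of counting is not given in the sources used here. The 111 rows that name no gene, with 0.0778% of reads, entered neither library sizes nor tests.

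Genes with at least 10 reads in all were kept (36527). edgeR 4.0.16 (R 4.3.3) with TMM and the quasi-likelihood test was fitted with 1 coefficient for each genotype, tissue and week over 33 libraries, and p was Benjamini-Hochberg adjusted over all genes tested. A call needs an adjusted p under 0.1 and a fold over 1.5, the study's limits. Levels are CPM, and correlations used log2(CPM + 0.5). A single-week contrast rests on 2 or 3 libraries a group. On simulated counts for the WT and KO gland comparison (35449 genes), 96 of 100 genes changed by 1 and 100 of 100 changed by 2 on the log2 scale were called, with 13 false calls. These counts were drawn with the same dispersion for every gene, without outlying libraries or differences in rRNA share. Changed genes were taken only from those with a mean of at least 100 reads. The recovery therefore checks the fit and does not give the power for the 10 genes.

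The 10 genes, taken by name, and the 11 wider and 7 marker lists were chosen with earlier results of these data known. Genes named from a list are up to 4 of its called genes with the largest change, and those most like Atf4, Asns and Ddit3 are the 5 of highest r. Atf5, Cebpb, Shmt1, Pck2, Dusp1 and Per1 were named beyond that, for small counts of calls, after their values were seen. Alternatives were DESeq2 1.42.0, its size factors in edgeR, no filter, a replicate block, the log10 rRNA share as a covariate, rRNA genes left out, only the libraries compared, each library left out (with the trended dispersion of all 33), and, added after seeing the data, limma 3.58.1 on log2(normalized signal + 1) and only libraries under 1% rRNA. Same-numbered samples are different mice, and their deviations correlated from -0.609 to 0.603. Gene positions and exon lengths come from Gencode M21 (GRCm38), promoters from RefSeq (GRCm38.p6).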

Additional observations from a re-analysis of the deposited data

Results flagged for a closer look

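Values that stood far from the others of their genotype and tissue, by Dixon's test at the 95% level on each end, were found in 8 of 40 groups of libraries, where chance alone flags about 1 group in 20. The groups are 4 pools of libraries for each of 10 genes that move together, and the 8 flags come from 3 libraries, so they are not independent and that rate does not apply to their number. Replicate 3 of the WT tumors of week 10 was high in Trib3 (59.5 CPM), Asns (196) and Psat1 (202). Replicate 2 of the KO glands of week 12, the library with 18.8% of reads on rRNA genes, was high in Psat1 (201 CPM), Phgdh (151) and Shmt2 (183). Replicate 1 of the KO tumors of week 12 was high in Sesn2 (42.4 CPM) and Shmt2 (104). Groups pool the weeks of a genotype and tissue, and the part of week was not tested.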

How the results depend on the processing

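Of 2320 refits of 130 single gene values over 13 comparisons, 2242 stayed on the same side of the call, 47 lost the call, 30 gained it, and 1 was called in the opposite direction, Asns from week 6 to week 10 in WT tumors (-0.92 without replicate 3 of week 10). Values that were not called changed sign in some refits, for example Ddit4 at WT week 8 (-0.26 to 0.33). The causes were not tested. The number of the 10 genes called changed as follows. In WT tumors against glands of week 6 (1 called) it was 0 with the rRNA covariate, 0 with libraries under 1% rRNA and 3 with only the libraries compared. At week 8 (1 called) it was 2 with DESeq2, 3 without the filter on low counts, 2 with the replicate block and 3 with only the libraries compared. At week 10 (0 called) DESeq2, no filter, the replicate block and limma each gave 1. In KO, week 10 (1 called) gave 2 with only the libraries compared, and week 12 (1 called) gave 2 with DESeq2, 2 without the filter, and 0 with the rRNA covariate, without rRNA genes, with only the libraries compared and with libraries under 1% rRNA. The KO mean of weeks (1 called) gave 0 with the rRNA covariate, without rRNA genes, with libraries under 1% rRNA and with limma. The WT mean (3 called) gave 2 with only the libraries compared and 2 with libraries under 1% rRNA, losing Phgdh. Without the filter, 1 gene was called between WT and KO glands, and 1 from week 6 to week 10 in WT tumors, where DESeq2 also called 1. Leaving out 1 library gave 0 to 1 called for WT week 6, 0 to 2 for week 8, 0 to 5 for week 10, 0 to 1 for KO week 10, 0 to 4 for KO week 12, 1 to 3 for the WT mean, 0 to 1 for the KO mean, 0 to 1 between tumors of the genotypes and 0 to 2 from week 6 to week 10. The Asns change from week 6 to week 10 ran from -0.92 to 0.44 with 1 library left out. With TGATGCAA in place of TGATGNAA, 1 promoter matched instead of 3. Of the 5 genes most like Atf4 and Ddit3, 2 and 1 remained as deviations from condition means.

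Same-numbered samples are different mice, so the replicate block rests on a number only, and it changed no other count of the 10 genes. KO week 10 could not be fitted with libraries under 1% rRNA, since no KO gland of that week was left, and KO means there cover weeks 8 and 12 and the difference of tumor effects week 8 alone. Among the settings that keep every library or restrict by group or rRNA, counts over all genes moved by over 1.5 times in these cases. DESeq2 and no filter gave 1695 and 1613 for KO week 8 (909), 664 and 573 between tumors of the genotypes (187), 741 and 722 between glands (331), 74 and 138 for the difference of tumor effects (2), 253 and 440 from week 6 to week 10 (4), and 125 and 176 from week 8 to week 12 in KO (0). The rRNA covariate gave 116 between tumors and 52 between glands. Only the libraries compared gave 995 for WT week 10 (2240), 1416 for KO week 8, 0 for KO week 12 (2233), 67 between glands, 0 for the difference of tumor effects, 0 from week 6 to week 10 and 1 from week 8 to week 12. Libraries under 1% rRNA gave 40 for KO week 8, 1462 for KO week 12, 1773 for the KO mean (3872), 19 between tumors, 6 between glands, 0 for the difference of tumor effects, 0 from week 6 to week 10 and 2 from week 8 to week 12. Limma gave 663 between glands and 7 from week 6 to week 10. Leaving out 1 library also moved counts over all genes, as low as 492 for WT week 6 (2139, without gland replicate 2), 2202 for week 8 (3358, without gland replicate 2), 1212 for week 10 (without gland replicate 1), 45 for KO week 8 (without gland replicate 1), 690 for KO week 10 (2067, without gland replicate 2) and 1448 for KO week 12 (without tumor replicate 2). The ranges were 53 to 585 between tumors (lowest without replicate 2 and highest without replicate 1 of the KO tumors of week 8), 61 to 773 between glands (without KO replicate 2 of week 8 and KO replicate 1 of week 12), 0 to 14 for the difference of tumor effects, 0 to 374 from week 6 to week 10 (highest without replicate 3 of week 10) and 0 to 211 from week 8 to week 12 (highest without replicate 1 of week 8).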
